A study of Mus musculus with 6 samples.

Results

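Processed pseudogenes are copies of spliced messenger RNAs that were reverse transcribed and inserted elsewhere in the genome. They therefore carry the coding sequence of a parent gene, and often its CpGs, without the parent's introns and usually without its promoter. In mammals most CpGs outside promoter islands carry 5-methylcytosine, and methylated CpGs mutate readily to TpG or CpA. Uhrf1 binds hemimethylated CpGs behind the replication fork and recruits the maintenance methyltransferase Dnmt1, so that the new DNA strand is methylated like the old one. The regions described here are the autosomal genes annotated as processed pseudogenes in GENCODE M21 (build GRCm38) that overlap no exon of a protein-coding gene. Of 8924 annotated autosomal processed pseudogenes 129 overlapped a coding exon, which left 8795. CpG methylation could be read in 1046 of these, at 3865 of the 636736 autosomal cytosines that had at least 6 reads in every library. The other 7749 held no such cytosine, 489 held 1 or 2, and 557 held 3 or more and were tested singly.

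The libraries came from entire cortices dissected at embryonic day 16 (E16) from C57BL/6 mice, 3 of genotype Uhrf1 -/- (conditional knockout, cKO) and 3 heterozygous Uhrf1 +/- controls. In the study's model both groups carry Cre at the Emx1 locus, which removes floxed exon 4 of Uhrf1 in the dorsal telencephalon, so cells of other origin in the dissected tissue keep the gene. The assay, Ox-RRBS, is reduced representation bisulfite sequencing with an oxidation step: genomic DNA is cut at CCGG by MspI, 5-hydroxymethylcytosine is oxidised, and bisulfite treatment then leaves only 5-methylcytosine to be read as C. A CCGG site was present in 4062 of the 8795 pseudogenes and in 1044 of the 1046 that were covered. The covered pseudogenes had a median length of 725.5 bp, a median of 17 CpG sites and a median GC content of 50.7%, against 546 bp, 8 sites and 47.5% over all 8795.

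The 3 pairs of pseudogene and parent below are shown because they hold the patterns described further on: a copy methylated where its parent is not, a copy that kept more methylation in cKO than a parent of the same control level, and a copy as free of methylation as its parent. All were read from GRCm38 along the coding strand, 5′ to 3′, and lie in the coding sequence of the parent. Capitals mark every CpG. The first pair is Gm9063 at chr12:110320036-110320173 (minus strand) and Mrps26, a protein of the small mitochondrial ribosomal subunit, at chr2:130563821-130563958 (plus strand).
Gm9063: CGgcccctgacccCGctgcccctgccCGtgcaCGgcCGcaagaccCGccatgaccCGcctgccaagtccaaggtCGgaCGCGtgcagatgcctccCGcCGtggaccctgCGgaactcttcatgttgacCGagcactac
Mrps26: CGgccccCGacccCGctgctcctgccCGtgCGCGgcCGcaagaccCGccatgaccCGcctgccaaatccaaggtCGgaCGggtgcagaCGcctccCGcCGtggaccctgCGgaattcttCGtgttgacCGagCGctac
The stretches were 93.5% identical with no gap, and Gm9063 had kept 13 of the 18 CpGs of Mrps26, while the other 5 read TpG or CpA. The second pair is Gm19430 at chr1:34930420-34930480 (plus strand) and Cactin, a gene of pre-mRNA splicing, at chr10:81325721-81325785 (plus strand), which were 80% identical over an alignment with 4 gapped positions.
Gm19430: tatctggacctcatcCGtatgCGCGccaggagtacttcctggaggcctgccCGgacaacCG
Cactin: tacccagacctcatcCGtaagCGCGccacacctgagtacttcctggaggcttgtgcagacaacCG
All 4 CpGs of Cactin were present in Gm19430. The third pair is Gm5814 at chr17:47410453-47410522 (plus strand) and Mrfap1 at chr5:36796434-36796503 (minus strand), 98.6% identical, with 16 of 17 parental CpGs kept.
Gm5814: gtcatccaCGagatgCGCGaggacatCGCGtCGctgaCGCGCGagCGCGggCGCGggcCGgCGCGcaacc
Mrfap1: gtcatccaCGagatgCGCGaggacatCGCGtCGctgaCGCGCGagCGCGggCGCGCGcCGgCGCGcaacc

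At the 8 CpGs of Gm9063 that were covered in both copies, the mean methylation was 46.2%, 64.9% and 43.1% in the cKO libraries, 69.7% in the library labelled control replicate 1, and 93.3% and 95.8% in control replicates 2 and 3. Mrps26 at the same CpGs was at 0% in all 3 cKO libraries and in control replicates 1 and 2, and at 4.46% in control replicate 3. The copy was methylated in every library, and no library of the copy overlapped those of the parent. At 5 aligned CpGs Gm19430 had 71.4%, 76.3% and 67.0% in cKO libraries and 61.4%, 95.2% and 91.1% in control replicates 1, 2 and 3. Cactin had 38.0%, 17.4% and 12.8% in cKO libraries and 17.1%, 92.5% and 95.3% in controls, so that copy and parent stood alike in control replicates 2 and 3 and apart in the other 4 libraries. Gm5814 read 0% at its 12 aligned CpGs in all 6 libraries, and Mrfap1 stayed at or under 0.689%.

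Coverage summed over the cytosines in the files was between 18238737 and 31019082 per library. Read counts of a body are likewise summed over its cytosines, so a read spanning several of them counts at each. Median coverage of the pseudogene cytosines ranged from 20 to 30 reads, against 19 to 29 at intergenic and 19 to 28 at intronic cytosines. A level of 50% read from 50 reads has a 95% Wilson interval of 36.6% to 63.4%, and these intervals cover counting error only, since the reads carry no molecular identifiers. They also treat all counts as independent, which is not so where a read counts at several cytosines. The library labelled control replicate 1 was methylated like the cKO libraries over the autosomes, with 15.5% against 15.7% to 19.4% in cKO and 38.8% and 39.1% in control replicates 3 and 2. It keeps its label. The tests between groups and between classes are given with and without it, each library's values are printed, and the shares kept, the falls in points and the q values of single pseudogenes are given without it. Leaving it out was a choice made on methylation, the quantity tested. Small q values and calls without it are therefore no independent support for a difference between the groups. With all 6 libraries the lowest q of any of the 557 tested pseudogenes was 0.245 (moderated quasi-binomial test with limma). Nothing in the labels ties a library to one embryo or litter, so the p-values speak only of the spread among these 6 libraries, which may be technical.

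Processed pseudogenes were the most methylated of the 3 classes compared in every library, 20.8 ± 7.0 points above intergenic CpGs and 25.2 ± 7.8 points above intronic CpGs (SD, n = 6, two-sided exact sign-flip permutation p = 0.03125 for each, the smallest possible). Within 1000 bp of the start of a protein-coding gene lay 23 of the 3865 pseudogene CpGs, against 41916 of 176031 intergenic and 51217 of 204673 intronic CpGs. More than 1000 bp from any such start the gaps were smaller, 12.3 ± 3.1 and 17.3 ± 3.8 points (SD, n = 6), and again positive in 6 of 6 libraries, a choice made after the data were seen. There pseudogenes had 40.1% in cKO and 78.4% in control replicates 2 and 3, intergenic CpGs 29.7% and 62.2%, and intronic CpGs 25.2% and 56.3%. With each cytosine weighted equally, their mean level was 43.4%, 41.8% and 34.9% in the cKO libraries, 36.1% in control replicate 1, and 78.3% and 78.1% in control replicates 2 and 3. The cKO libraries lay far below control replicates 2 and 3 and overlapped control replicate 1. The mean was 40.0% ± 4.5 in cKO (SD, n = 3) and 64.2% ± 24.3 in controls (SD, n = 3), a difference of -24.2 points that did not pass a two-sided exact permutation test (p = 0.3). Without control replicate 1 the difference was -38.2 points, with an exact permutation p of 0.1, the smallest value that 3 against 2 libraries allow. In bulk tissue a lower level in every cell and a larger share of cells without methylation cannot be told apart. Intergenic CpGs had 23.4% in cKO and 48.6% in control replicates 2 and 3, and intronic CpGs 19.6% in cKO and 43.1% in those controls. As a share of the level in control replicates 2 and 3, the cKO libraries kept 51.2% in pseudogenes, 48.1% in intergenic DNA and 45.4% in introns. The 780 cytosines of pseudogenes inside protein-coding genes and the 3085 outside kept 50.0% and 51.5%.

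**Figure D1:**
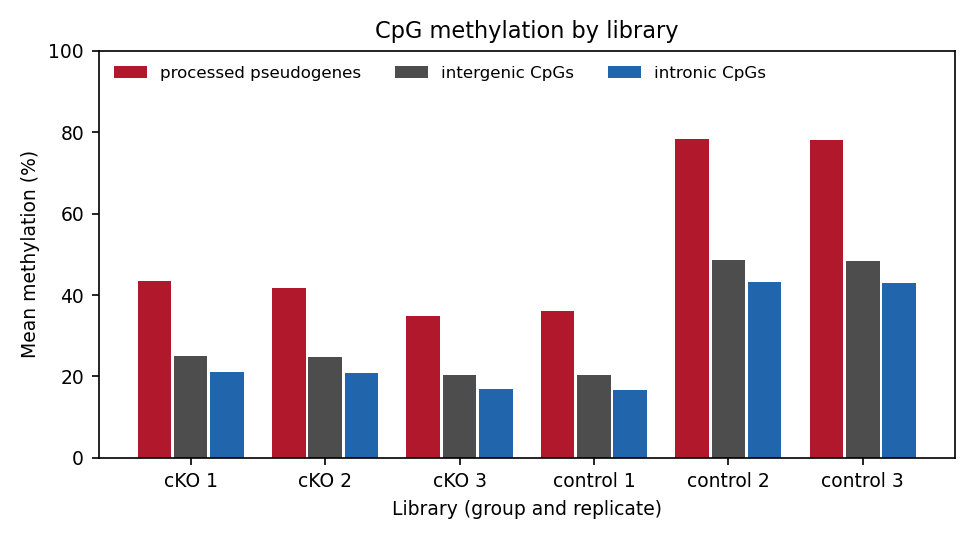
Mean methylation (percent) over CpG cytosines of processed pseudogenes (red), intergenic DNA (grey) and introns (blue) in each of the 6 libraries. Pseudogenes are highest in every library, and control replicate 1, at 36.1% in pseudogenes, sits with the cKO libraries.

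Taken 1 by 1, most pseudogenes were lower in every cKO library than in control replicates 2 and 3. Reads were summed over each body, and the group term was tested by a quasi-binomial F test whose dispersion was moderated with limma across all 20458 autosomal gene bodies. A body was called where q (Benjamini-Hochberg) was under 0.01 and the groups were at least 25 points apart. With all 6 libraries 0 of 557 pseudogenes were called, as were 0% of all gene bodies. Unadjusted p was under 0.05 for 61 of the 557 pseudogenes (11%), all lower in cKO, against 19.5% of all gene bodies. limma on percent methylation also called 0, with 88 under 0.05 (15.8%), against 5.22% of all gene bodies, and an unmoderated dispersion 0, with 57 under 0.05 (10.2%), against 7.42%. Without control replicate 1, 412 of 557 were called lower (74.0%) and 0 higher, against 39.4% of all gene bodies called lower. This count rests on the shared dispersion: with each body's own dispersion, 0 were called, though 466 had an unadjusted p under 0.05 (83.7%, against 63.6% of all gene bodies), and limma on percent called 385 lower (69.1%, against 37.5%).

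The higher share went with a higher starting level, since the median pseudogene had 87.5% in control replicates 2 and 3 and the median of the other gene bodies was 34.2%. Among bodies at 80% or more in those controls, 353 of 414 pseudogenes (85.3%) and 2417 of 2643 other gene bodies (91.4%) were called lower without control replicate 1. The median share of the control level kept in cKO was 47.3% in these pseudogenes and 41.9% in the other bodies. Every cKO library lay below control replicates 2 and 3 in 506 of 557 pseudogenes, against 74.3% of all gene bodies. Every cKO library lay below all 3 controls in 93 of 557, against 8.93% of all gene bodies. Control replicate 1 was at or below the highest cKO library in 458 and above every cKO library in 99. Shares over all gene bodies are not given for these last counts, so nothing particular to pseudogenes is drawn from them.

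**Figure D2:**
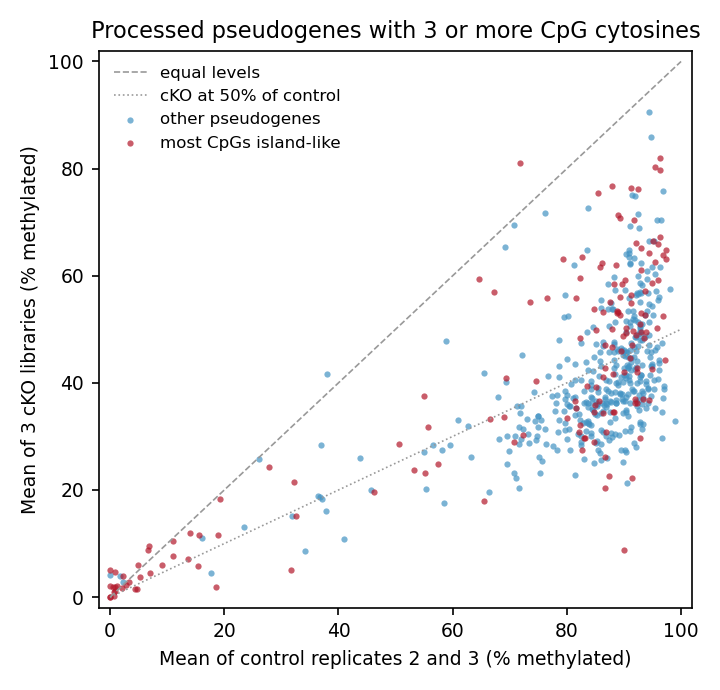
Mean methylation of each of 557 processed pseudogenes in the 3 cKO libraries (vertical axis, percent) against the mean of control replicates 2 and 3 (horizontal axis, percent). Red points are pseudogenes with most covered CpGs in an island-like neighbourhood, and the dotted line marks cKO at 50% of control. Most points lie between 80% and 100% on the horizontal axis, with a second small group near 0% on both axes.

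The levels in control replicates 2 and 3 formed a large methylated and a small unmethylated group. Of the 557 pseudogenes 214 had 90% or more, 200 had 80% to 90%, 88 had 50% to 80%, 18 had 20% to 50%, 11 had 10% to 20% and 26 had under 10%. Over the 519 pseudogenes with at least 25% in those controls, the share of the control level kept in cKO had a median of 47.2% and quartiles of 40.9% and 57.6%.

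The pseudogene with most covered cytosines, 57, was Gm19430 (chr1:34928509-34930645), the Cactin copy shown above. Over its whole body it had 65.7%, 67.0% and 60.1% in cKO libraries, against 59.1%, 90.4% and 91.3% in control replicates 1, 2 and 3 (q = 1.1e-05 without control replicate 1, moderated quasi-binomial test with limma). A second copy of the same gene, Gm11620 (chr11:105164776-105166620, 21 cytosines), had 58.6%, 60.4% and 59.7% in cKO libraries and 59.1%, 80.1% and 84.6% in controls. Its difference of -22.8 points was under the 25-point limit. Both Cactin copies thus kept a majority of their methylation in all 3 cKO libraries. Gm11400, a copy of Eef2 (translation elongation factor 2) inside a protein-coding gene on chromosome 11, had 55.0%, 54.4% and 47.9% in cKO libraries, against 50.2%, 82.1% and 78.5% in controls. Its 18 cytosines drew 4703 to 9720 reads per library, far more per cytosine than the median coverage of 20 to 30. Whether reads from other copies contributed was not tested. Gm7046 on chromosome 13, whose best match was the vomeronasal receptor gene Vmn2r53, had 52.5%, 45.4% and 39.4% in cKO libraries, against 41.3%, 86.8% and 89.5% in controls. Its annotated body spans 14602 bp, and 12 of its 20 covered cytosines lay in sequence masked as repeats, so its level is largely that of repeats.

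The largest falls among the 256 pseudogenes with at least 5 cytosines and 50 reads in each library took 58.1 to 64.7 points. The first of them, Gm8731, a copy of the ribosomal protein gene Rps16, had 31.3%, 19.7% and 16.7% in cKO libraries, against 17.3%, 81.0% and 93.6% in control replicates 1, 2 and 3. Gm17994, a copy of Rps7, fell by 62.1 points and Gm5739, a copy of Ezr (ezrin, which links actin to the membrane), by 58.9. Copies of Gpbp1l1 (Gm2915), Rnd2 (Gm4768) and Ciart (Gm9176) were also among them. The last of them was Gm15953 (chr16:38512565-38514296), whose best match was Uhrf1 itself at 88.6% identity. Gm15953 had 35.5%, 30.0% and 22.3% in cKO libraries, against 35.8%, 91.6% and 83.2% in control replicates 1, 2 and 3 (q = 0.00011 without control replicate 1, moderated quasi-binomial test with limma). All 6 of its cytosines had a neighbourhood found once in the genome. Outside this rule, with fewer cytosines or reads, 6 pseudogenes had larger falls without control replicate 1. The largest of these, named after its values were seen, was in Gm19810 (chr10:79888712-79888962, a copy of the ribosomal protein gene Rps21, 48 reads in its thinnest library), which had 11.3%, 8.96% and 6.35% in cKO libraries, against 41.5%, 89.6% and 90.3% in controls.

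At the other end, 6 pseudogenes with at least 70% in control replicates 2 and 3 moved least. Gm13238, a copy of Cdv3, had 76.4%, 75.6% and 74.2% in cKO libraries, against 71.2%, 83.8% and 86.9% in control replicates 1, 2 and 3, and its difference of -9.99 points was not called (q = 0.16 without control replicate 1, moderated quasi-binomial test with limma). A second Cdv3 copy, Gm13241, had 71.3%, 60.9% and 57.0% in cKO libraries, against 60.4%, 83.8% and 74.9% in controls. Rps4l-ps, a ribosomal protein pseudogene, kept 76.2%, 85.8% and 84.1% in cKO libraries, against 86.7%, 96.1% and 96.5% in controls. Gm9824, a copy of Pebp1 (a kinase inhibitor protein), Gm16238, a copy of Rpl19, and AC102106.2, a copy of Rpl36, lost between 16.3 and 17.7 points. Gm9824 was 98.9% identical to Pebp1, and only 2 of its 6 cytosines had a neighbourhood found once in the genome. This was so for 6 of 6 in Gm16238 and 17 of 18 in AC102106.2. In all 6 pseudogenes every cKO library was still below control replicates 2 and 3.

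Ribosomal protein genes, the largest of the parent families listed here, were the best match of 223 of the 1046 covered pseudogenes. Another 550 had a parent outside these families, and 95 had no parent found. Of 121 tested ribosomal copies 95 were called lower without control replicate 1, with a median of 40.5% in cKO and 89.5% in control replicates 2 and 3. Calls were made in 12 of 14 copies of translation factors, 8 of 10 of glycolytic genes, 7 of 12 of chromatin and HMG genes, 8 of 9 of cytoskeletal genes and 4 of 5 of chaperones. The same held for 9 of 15 copies of RNA-binding genes, 13 of 19 of mitochondrial genes, 1 of 2 of proteasome genes and 2 of 2 of nucleolar genes. These stand beside 39.4% of all gene bodies and 74.0% of all tested pseudogenes. Gm8483, a copy of the glycolytic enzyme gene Eno1, had 43.0%, 37.0% and 33.1% in cKO libraries, against 45.0%, 92.1% and 93.0% in control replicates 1, 2 and 3. H2afy3, a copy of the macroH2A gene H2afy2, had 52.6%, 55.2% and 59.8% in cKO libraries, against 48.7%, 87.8% and 94.1% in controls. Copies of Actg1 (Gm6375), Dnajb6 (Gm4247), Ddx18 (AC122481.1), Psmd11 (Gm14048), Timm29 (Gm49264) and Fbl (Gm49693) had cKO means of 39.5% to 56.4% and means of 84.2% to 91.2% in control replicates 2 and 3.

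Copies of the same parent differed in how much they kept. The 11 tested copies of Rpl19 spanned only 86.3% to 95.9% in control replicates 2 and 3 but 33.4% to 74.9% in cKO, and 7 were called lower without control replicate 1. Among those with at least 5 cytosines Rpl19-ps9 was lowest in cKO, with 32.2%, 40.5% and 31.5% in cKO libraries, against 37.0%, 88.8% and 83.7% in control replicates 1, 2 and 3. Gm16238 was highest, with 75.0%, 79.6% and 70.1% in cKO libraries, against 62.5%, 92.1% and 91.8% in controls. The cKO libraries of these 2 copies did not overlap, but the 2 were picked as the extremes, so this is no test. Some of the 11 copies had few data, as Rpl19-ps1 with 3 cytosines and 33 reads in its thinnest library. Whether copies of 1 parent differed more or less than unrelated pseudogenes was not tested. The 8 copies of Rpl17 had 21.2% to 71.5% in cKO and 81.5% to 96.9% in control replicates 2 and 3.

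The 37 pseudogenes under 20% in control replicates 2 and 3 were low in every genotype. Mospd4, with 31 cytosines, had 2.63%, 5.01% and 3.55% in cKO libraries, against 1.63%, 5.29% and 5.28% in control replicates 1, 2 and 3. The Mrfap1 copy Gm5814 had between 0% and 1.83% over 21 cytosines, and Gm13836 on chromosome 5 between 3.48% and 9.40% over 20. Gm11950, a copy of Irf2bpl, and Gm21321, matched to the lipase gene Pnpla1, stayed at or under 2.54% in all 6 libraries. In 32 of the 37, most covered cytosines were island-like, that is, the surrounding 200 bp had at least 50% GC and a CpG observed-to-expected ratio of at least 0.6. This was so in 101 of the 414 pseudogenes at 80% or more. Only 1 of the 37 had a body that reached within 1000 bp of the start of a protein-coding gene, against 5 of the 414. As a description, the 33 of them with a parent had kept 73.2% of the parent's CpGs, against 60.5% in the 383 highly methylated copies with a parent. The 33 were also closer to their parents, with a median identity of 94.99% against 92.74% in the 383. Copies of higher identity kept more CpGs, as given further on. Whether the 2 groups differ in CpGs kept at equal identity was not tested.

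At a matched control level pseudogenes stood slightly above the other classes in all 3 cKO libraries. Intergenic and intronic CpGs were weighted to the pseudogenes' distribution over bins of 5 points of the mean of control replicates 2 and 3. Pseudogenes then exceeded intergenic CpGs by 3.28, 2.73 and 2.43 points in the 3 cKO libraries (mean 2.82 ± 0.43, SD, n = 3) and by 2.92 points in control replicate 1. They exceeded intronic CpGs by 6.07, 5.63 and 5.68 points in cKO libraries (mean 5.80 ± 0.24, SD, n = 3) and by 6.10 in control replicate 1. Each difference was positive in 3 of 3 cKO libraries, and the two-sided exact sign-flip permutation p was 0.25, the smallest that 3 libraries allow. The excess over intergenic CpGs was gone when bins were also crossed with the number of CpGs within 100 bp (-0.34 points, with 0.20, -0.28 and -0.93 in the 3 libraries), and was 0.923 points with each pseudogene weighted equally. The excess over intronic CpGs was 2.92 and 3.87 points under the same changes. Outside masked repeats the excess was 5.30 points over intergenic and 6.89 over intronic CpGs. With only neighbourhoods found once in the genome it was 3.53 and 5.80 points. Whether local CpG density accounts for the intergenic difference was not tested.

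**Figure D3:**
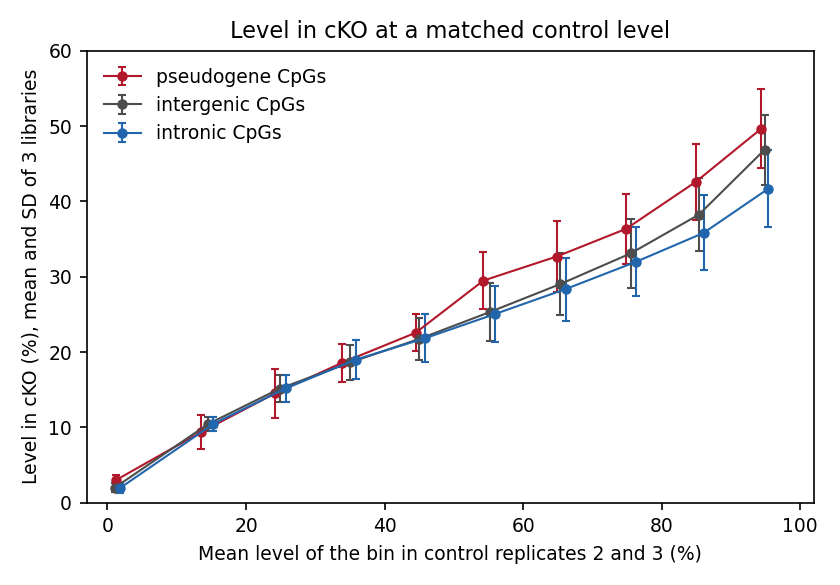
Methylation in cKO (vertical axis, percent, mean and SD of 3 libraries) by 10-point bins of the level in control replicates 2 and 3 (horizontal axis, percent) for pseudogene, intergenic and intronic CpGs. In the highest bin pseudogene CpGs had 49.7%, intergenic 46.9% and intronic 41.7%, with error bars that overlap, because the libraries differ more between themselves than the classes do within a library.

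CpG-dense pseudogene DNA was more methylated than CpG-dense DNA of the other classes. At CpGs with 15 or more CpGs within 100 bp, pseudogenes had 31.1% in cKO and 47.7% in control replicates 2 and 3, against 3.01% and 3.36% in intergenic DNA and 1.96% and 1.80% in introns. Of the island-like intergenic CpGs 32084 of 51248 lay within 1000 bp of the start of a protein-coding gene, so the comparison was repeated more than 1000 bp from any start of a protein-coding gene, a choice made after the data were seen. There, island-like pseudogene CpGs (1243 in 304 pseudogenes) had 39.2% in cKO and 66.9% in control replicates 2 and 3, island-like intergenic CpGs 22.3% in cKO and 35.8% in controls, and intronic CpGs 10.01% in cKO and 17.7% in controls. The differences averaged 21.6 ± 7.6 and 35.7 ± 10.7 points over the libraries (SD, n = 6) and were positive in 6 of 6. At 15 or more CpGs away from coding starts pseudogenes had 31.3% in cKO and 47.7% in control replicates 2 and 3, intergenic CpGs 8.46% and 11.4%, and intronic CpGs 3.04% and 3.48%. The differences there averaged 27.2 ± 7.3 and 33.4 ± 8.7 points. Together with the levels over all CpGs above, 8 comparisons were made, and each gave a two-sided exact sign-flip permutation p of 0.03125, the smallest possible, which Benjamini-Hochberg adjustment over the 8 leaves as it is. Without control replicate 1 the differences were 12.7 to 37.2 points, and each exact permutation p was 0.0625, the smallest that 5 libraries allow. The 6 libraries share the same CpGs, so this is a statement about libraries and not about a wider set of regions.

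The share of the control level kept in cKO was also higher at denser CpGs. Pseudogene CpGs with 1 to 3 CpGs within 100 bp kept 44.2%, those with 4 to 6 kept 47.8%, with 7 to 9 50.6%, with 10 to 14 56.8% and with 15 or more 65.1%. Intergenic CpGs kept 43.6%, 46.1%, 51.8% and 63.6% in the first 4 of these classes, so the same order was present there. Across 502 pseudogenes at 50% or more in control replicates 2 and 3, the share kept correlated with mean local CpG density (Pearson's r = 0.35, Spearman's rho = 0.33) and weakly with identity to the parent (r = 0.16, rho = 0.17, 460 pseudogenes). These are descriptions across regions that share the same libraries.

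**Figure D4:**
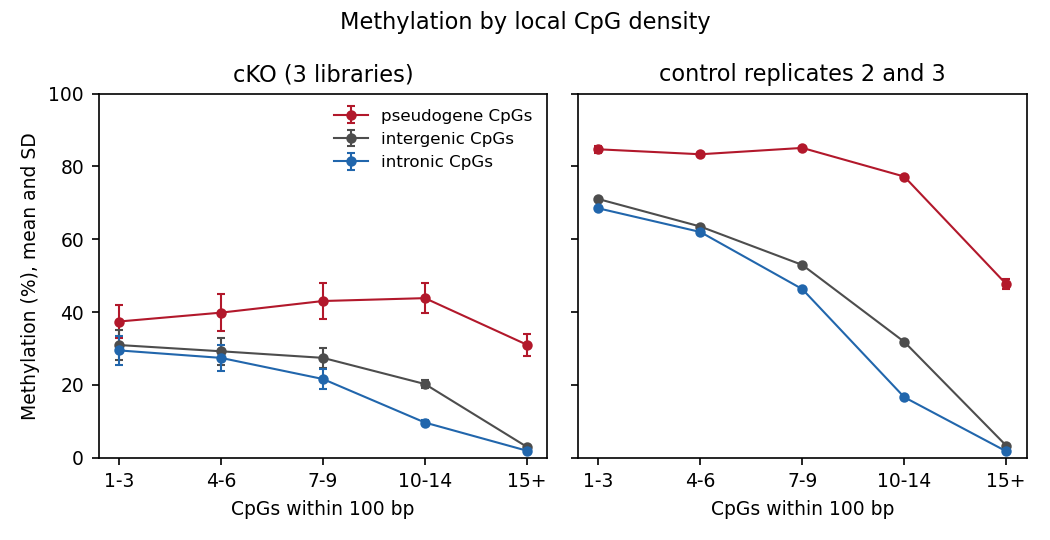
Methylation (percent, mean and SD) by number of CpGs within 100 bp, in the 3 cKO libraries (left) and in control replicates 2 and 3 (right), for pseudogene, intergenic and intronic CpGs. Above 15 CpGs, pseudogenes stand at 31.1% in cKO and 47.7% in the controls, where both other classes are under 4%.

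A best protein-coding match of at least 80% identity over 100 bases was found for 951 of the 1046 covered pseudogenes, in 567 parent genes, with a median identity of 92.4%. At 415 CpGs, in 191 pseudogenes and 148 parents, the aligned CpG was covered in both copies, and 413 of these lay in the parent's coding sequence. Pseudogene copies had 41.6%, 40.3% and 34.5% in cKO libraries, against 16.2%, 17.8% and 14.5% in parents. In control replicates 1, 2 and 3 pseudogenes had 36.8%, 71.6% and 71.1%, against 12.5%, 37.6% and 37.7% in parents. The pseudogene was higher in 6 of 6 libraries, by 26.6 ± 5.8 points (SD, n = 6, two-sided exact sign-flip permutation p = 0.03125, the smallest possible). With 5 libraries the test cannot go below 0.0625, and it gave that value whichever library was left out. Restricting the pairs to those under 95% identity gave 31.4 points, and restricting them to the 361 with a neighbourhood found once in the genome gave 27.4. Each parent weighted equally gave 23.2.

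The parent's state divided these pairs. At 208 CpGs the parent was under 10% in control replicates 2 and 3. There pseudogenes had 32.9% ± 3.0 in cKO (SD, n = 3) and 57.2% in control replicates 2 and 3. The parents had 2.12% in cKO and 0.778% in those controls, the latter fixed by the selection. The copy was over 50% at 129 of these CpGs and under 10% at 61. At 99 CpGs the parent was instead over 80% in those controls. There copies had 88.7% and parents, again by selection, 92.3% in those controls, with 47.9% and 36.3% in cKO. Gm10254, a copy of the splicing regulator gene Tra2b, had 58.2%, 51.6% and 59.5% in cKO libraries at 6 aligned CpGs, against 54.1%, 78.5% and 86.0% in control replicates 1, 2 and 3, with the parent at 0% in all 6 libraries. Gm3786, a copy of the respiratory complex I gene Ndufa6, had 80.3%, 90.5% and 73.9% in cKO libraries, against 65.2%, 100% and 98.5% in controls, with its parent between 0% and 2.74%. Copies that shared an unmethylated state with the parent were Gm11950 (Irf2bpl) and Gm8116 (Carnmt1, a methyltransferase gene) at 9 CpGs each and Gm19040 (Camsap1, a microtubule-binding protein gene) at 7. A second Carnmt1 copy, Gm7622, had 11.3% in cKO and 16.4% in control replicates 2 and 3, and Gm12818, a copy of Minpp1, 10.5% and 11.1%.

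Where both copies were over 80% in control replicates 2 and 3, a selection made after the data were seen, 77 CpGs in 49 pseudogenes remained. Their pseudogenes had 53.5%, 54.6% and 46.3% in cKO libraries, against 36.4%, 40.1% and 34.2% in the parents. The difference was 14.5 ± 2.5 points in cKO (SD, n = 3, positive in 3 of 3 libraries, exact sign-flip permutation p = 0.25, the smallest possible), and in control replicate 1 the copies had 47.2%, against 31.2% in the parents. In control replicates 2 and 3 the copies had 92.7% and 92.5%, against 93.2% and 92.2% in the parents, as the selection fixed.

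**Figure D5:**
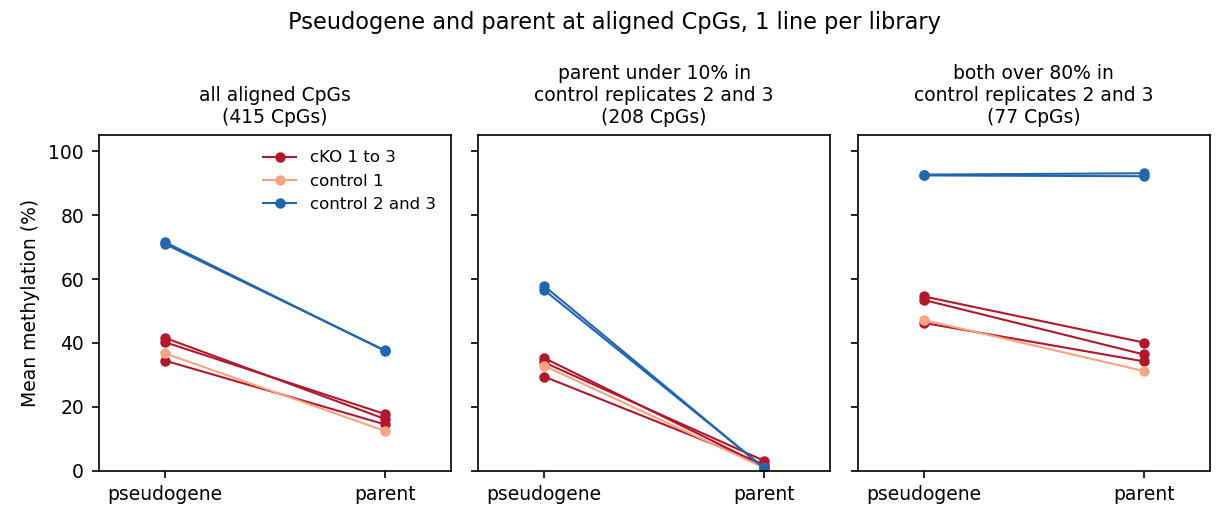
Mean methylation (percent) of pseudogene copies and parents at aligned CpGs, 1 line per library, for all 415 CpGs, for the 208 where the parent is under 10% in control replicates 2 and 3, and for the 77 where both are over 80% there. In the first 2 panels the parent is lower in every library. In the second its low level in control replicates 2 and 3 was fixed by the selection. In the last the parent is lower in the cKO libraries and control replicate 1, and level with the copy in control replicates 2 and 3.

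The alignments also show how much CpG content the copies had lost. Of 25176 CpGs in the aligned parents 59.2% were still CpG in the pseudogene and 29.3% read TpG or CpA, while 86.0% of the parents' GpC dinucleotides, which have the same bases in the other order, were kept. CpG retention was 28.8% at 80% to 85% identity, 42.1% at 85% to 90%, 58.1% at 90% to 95%, 75.4% at 95% to 98% and 91.6% at 98% or more. Methylation did not follow the same order: pseudogene CpGs had 41.7%, 41.1%, 40.0%, 40.9% and 41.0% in cKO and 84.4%, 79.6%, 78.1%, 79.7% and 73.8% in control replicates 2 and 3 over those classes.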

How the data were processed

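The 6 Ox-RRBS libraries (3 cKO, 3 control) were used. The authors mapped reads to GRCm38 with the Genomatix mapper and dropped positions with 5 or fewer reads; their notes name methylKit. Per the file headers the deposited tables give a read count (coverage) per cytosine and strand and the percent of reads read as C. How reads with several equal matches were treated is not given in the sources used here. Methylated reads were coverage times percent, rounded. Autosomal cytosines with 6 or more reads in all 6 libraries were kept, all of them in CpGs. The members and gene lists were chosen with earlier results of these data known.

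Bodies with at least 3 cytosines were tested with a quasi-binomial F test (R 4.3.3, limma 3.58.1; prior from bodies at 5% to 95%, dispersion floor 1), which was tested on simulated data. Class means weight each cytosine equally and bodies sum reads. Intergenic CpGs lie outside every annotated gene, intronic ones inside a protein-coding gene and outside every exon. Parents are the best blastn 2.17.0 hit among GENCODE M21 protein-coding transcripts. A repeated neighbourhood is a 50-base stretch that occurs more than once in the genome after in silico bisulfite conversion. Named pseudogenes have at least 5 cytosines and 50 reads in each library: the 8 with most cytosines, up to 8 largest falls called without control replicate 1, up to 6 smallest falls from 70% or more, up to 5 called higher (0 were), the 5 under 10% in every library with most cytosines, 1 per parent family, and up to 8 parent pairs with most aligned CpGs. Genes named outside this rule were chosen after their values were seen. Alternatives changed coverage (10 or 20 reads), weighting, matching, the test and the libraries used. 1 pseudogene that the rule names is not reported here.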

Additional observations from a re-analysis of the deposited data

How the results depend on the processing

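The cKO minus control difference of the mean level stayed negative under all settings run (-26.4 to -24.4 points with other coverage minimums, weights or unique neighbourhoods, p = 0.3 by exact permutation; -38.2 to -17.1 with a library left out). With the replicate number as a block it was -24.2 points (exact sign-flip permutation p = 0.5), and limma with a replicate block called 0 pseudogenes, with 53 at an unadjusted p under 0.05 (9.52%, against 2.33% of all gene bodies). Equal numbers were not taken as pairs, since nothing in the labels ties them. Deviations of equal numbers from their group means correlated at -0.365, 0.189 and -0.435. Control replicate 1 pulls the control mean down, so these correlations cannot decide whether the libraries are paired. The plain binomial test called 321 lower (57.6%, against 21.5% of all gene bodies), and leaving out a library gave 0 to 412, with 412 only without control replicate 1. That count of 412 became 304 of 386 at 10 reads (40.7% of all gene bodies), 219 of 279 with 5 cytosines (37.7%) and 459 of 557 at q under 0.05 (41.7%). The excess over matched intergenic CpGs turned to -0.338 points when crossed with CpG density and was otherwise 0.923 to 5.30 points; with a cKO library left out it was 2.58 to 3.01. Over intronic CpGs it was 2.92 to 6.89, and 5.66 to 5.88 with a library left out. The pseudogene minus parent difference was 25.1 to 27.9 points with a library left out (exact sign-flip permutation p = 0.0625, the smallest for 5 libraries).

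RRBS reads a small share of pseudogenes, chosen by CCGG sites and with more CpGs than the rest, so nothing here extends to the 7749 without data. In 442 pseudogene cytosines (11.4%) the neighbourhood was repeated, against 5.45% of intergenic and 1.35% of intronic cytosines; these had 43.8% in cKO and 79.1% in control replicates 2 and 3, and unique ones 39.5% and 78.1%.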

Other observations

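CpGs close to the pseudogenes were more methylated than those further off, given here as a description with no test. Flanks were taken around all 8795 pseudogenes, whereas body levels come from the covered ones. The nearest upstream bin held 1703 cytosines and the other flank bins 396 to 603. Distance to the start of a protein-coding gene was not held equal, and whether the bins differ in it was not tested. Intergenic or intronic CpGs within 500 bp upstream of a processed pseudogene had 38.2% in cKO and 69.3% in control replicates 2 and 3, and those 1500 to 2000 bp upstream 23.9% and 50.2%. Within 500 bp downstream the levels were 36.3% in cKO and 74.8% in those controls, and at 1500 to 2000 bp 24.6% and 49.9%. Inside the bodies, the stretch nearest the 5′ end had 39.4% in cKO and 73.6% in control replicates 2 and 3, and the other 4 stretches of equal length 38.3% to 41.8% in cKO and 78.8% to 82.0% in those controls.

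In 5 pseudogenes every cKO library lay above control replicates 2 and 3: Gm18688, Gm21321, Gm11950, Gm21297 and Gm5819, named after their values were seen. All had cKO means at or under 5.03%, and none was called in any direction by the moderated quasi-binomial test with limma. The share of all gene bodies with this order is not given here, so nothing is drawn from the count.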
